A study of Homo sapiens with 18 samples.

Results

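The response to hepatocyte growth factor (HGF) was compared between the head and neck squamous cell carcinoma (HNSCC) lines Detroit 562 and SCC-9 by mRNA sequencing. The comparison rests on 12 of the 18 libraries of the series, which are all libraries of these 2 lines: 3 untreated control and 3 HGF-treated libraries of Detroit 562, and 3 untreated control and 3 HGF-treated libraries of SCC-9. The other 6 libraries, of the hypopharyngeal line FaDu, took part in the estimate of the spread and are quoted only beside results of the 2 lines. Detroit 562 is an established line from a metastasis of a pharyngeal carcinoma, and SCC-9 is an established line from a primary carcinoma of the tongue. Treated cells received 50 ng/ml HGF and control cells were left without it. By the study's methods and the records of the samples the treatment lasted 16 h before RNA was taken, whereas the record of the series has 48 h. The medium was MEM-α for Detroit 562. For SCC-9 it was DMEM F12, to which 400 ng/ml hydrocortisone was added, and in each line control and treated wells had the same medium. The line and its medium therefore cannot be told apart in any difference given here, and each line stands for 1 tumour.

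HGF is made mainly by mesenchymal cells and binds MET, a receptor tyrosine kinase of epithelial cells. Bound MET phosphorylates itself and signals through the RAS-ERK cascade, PI3 kinase and STAT3, and ERK induces both immediate target genes and the phosphatases and Sprouty proteins that dampen it again. In epithelial cells HGF is also known as scatter factor, since treated cells loosen their contacts, remodel the matrix and move.

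For each gene the response of a line was the log2 fold change of HGF over control between libraries of the same replicate number. The difference was the response of Detroit 562 minus the response of SCC-9, so a value above 0 means a stronger rise or a weaker fall in Detroit 562. A response or difference was called at an adjusted p below 0.1 (the quasi-likelihood test of edgeR, adjusted by the Benjamini-Hochberg method across the 15475 tested genes) and a size of at least 0.4 on the log2 scale. Levels are given as normalized counts, which are read counts scaled to a common library size and are not corrected for gene length. "Rose" and "fell" are used for called responses. Each replicate number of a line was a block of the model, because the labels share these numbers between control and HGF libraries, which on average deviated together. Leaving out 1 library thus takes its whole pair out of the response. A fit without the block called 137 differences in place of 1867.

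Total counts per library ranged from 35304770 to 42964310 over the 12 libraries, and replicates of a group correlated at 0.9854 to 0.9926 across genes. The squamous epithelial character of both lines was seen in 10 epithelial markers, whose summed level, in CPM (counts scaled to a fixed library total), was 3710 to 5200 in Detroit 562 control, 2590 to 3870 in Detroit 562 HGF, 9250 to 11900 in SCC-9 control and 9240 to 11100 in SCC-9 HGF. The 8 fibroblast markers summed to 29.2 to 54 CPM in Detroit 562 control and 14.3 to 26.2 with HGF, and to 132 to 148 and 106 to 123 in SCC-9. The 9 leukocyte markers summed to 20.5 to 39.5 and 35.5 to 52.7 in Detroit 562 and to 65.3 to 68.7 and 66.7 to 69.3 in SCC-9, nearly all of it from the lysosomal protein CD68, with 8 and 7 of the markers under 1 CPM. Endothelial markers summed to at most 3.08.

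The HGF library 3 of each line stood apart in genes that FaDu expressed strongly and the line itself barely. The 16 genes with a median of at most 5 scaled counts in SCC-9 and at least 500 in every FaDu library summed to 2.05% of their FaDu level in SCC-9 HGF 3, against 0.0837 to 0.281% in the other 5 SCC-9 libraries. The 13 such genes of Detroit 562 summed to 0.43% in Detroit 562 HGF 3, against 0.0367 to 0.1% in the other 5. Between the lines compared, genes high in Detroit 562 and low in SCC-9 stood at 0.276% in SCC-9 HGF 3 and at 0.0519 to 0.107% in the other 5 SCC-9 libraries, and genes high in SCC-9 at 0.0773 to 0.111% in all 6 Detroit 562 libraries. The 9 genes high in Detroit 562 and low in both SCC-9 and FaDu stood at 0.0291% in SCC-9 HGF 3. In the other 5 SCC-9 libraries they stood at 0.0437 to 0.107%. Counts by list, and the genes with the larger response in SCC-9, are also given with HGF 3 left out. What brought these reads into the libraries was not tested.

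**Figure D1:**
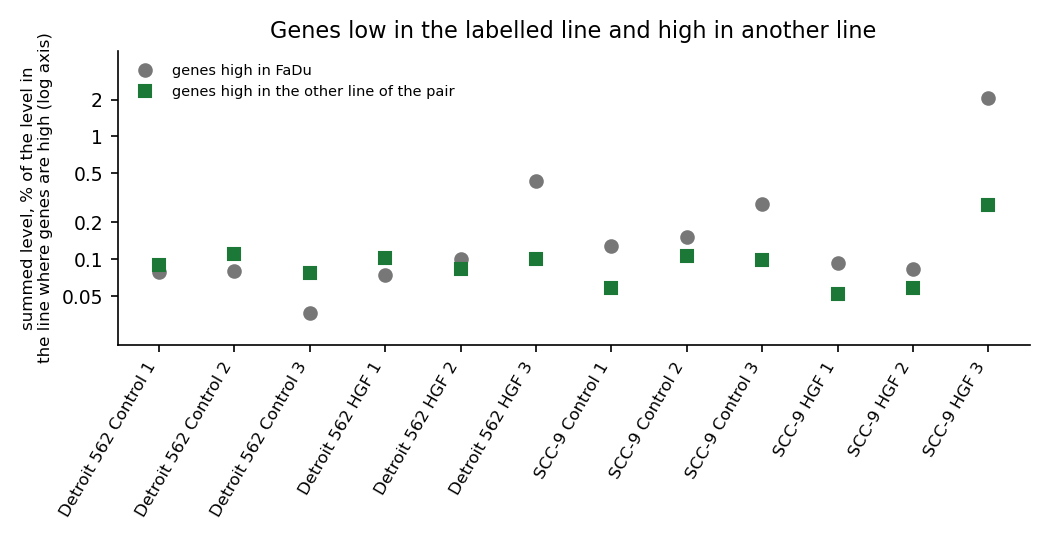
Summed level, as a percentage of that in the line that expresses them, of genes nearly silent in the line on the x axis, for each of the 12 libraries (log axis; grey circles are genes high in FaDu, green squares genes high in the other of the 2 lines). SCC-9 HGF 3 stands at 2.05% and Detroit 562 HGF 3 at 0.43% of the FaDu level, each above the other 5 libraries of its line. The genes high in the other of the 2 lines include some that FaDu also expresses.

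More genes were called in Detroit 562 than in SCC-9, and most called differences were larger responses of Detroit 562. In Detroit 562, 1104 genes rose (7.13% of those tested) and 2223 fell (14.4%), and in SCC-9, 87 rose (0.562%) and 218 fell (1.41%). Called responses made up 21.5% of the genes tested in Detroit 562, 1.97% in SCC-9 and 5.6% in FaDu, where 2% rose and 3.6% fell. The response differed between the lines in 1867 genes, 12.1% of those tested, with 648 differences above 0 (4.19%) and 1219 below 0 (7.88%). Of these 1867 genes 556 rose more in Detroit 562 and 1061 fell more in Detroit 562, while 12 rose more and 11 fell more in SCC-9. Among the genes of these 4 classes were 5 that were called in opposite directions in the 2 lines. A further 208 differences were called without a call in either line, and the remaining 19 fell in none of these classes. At an unadjusted p under 0.05, with no minimum size, 33% of all genes differed, and the 3 pair differences of Detroit 562 did not overlap those of SCC-9 in 39.6%.

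The 556 genes with the larger rise in Detroit 562 had a median response of 0.70 there and 0.08 in SCC-9, and in FaDu 0.23. The 1061 genes with the larger fall had medians of -0.82, -0.08 and -0.27. Both classes were formed from the responses of Detroit 562 and SCC-9, so the contrast of their medians follows in part from that choice. Of the 1867 genes, 91 were called in both lines in the same direction and still differed in size, with medians of -1.21 in Detroit 562 and -0.50 in SCC-9. Another 126 genes were called in both lines in the same direction with no called difference. At the size threshold, ZDHHC21 at -0.4002 and RCL1 at 0.4003 lay just inside and ATP6V0E2 at -0.3998 and MSANTD3 at 0.3997 just outside.

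The SCC-9 libraries, which do not share controls with those of Detroit 562, leaned the same way as Detroit 562 below the threshold for a call. Of the 1104 genes that rose in Detroit 562, 81.5% had an SCC-9 response above 0, with a median of 0.12, and 56 of them rose in SCC-9. Of the 2223 that fell, 23.5% had an SCC-9 response above 0, with a median of -0.14, and 161 fell in SCC-9. Over all genes tested the share above 0 in SCC-9 was 50.7%. Seen from SCC-9, the 87 genes that rose there had a median Detroit 562 response of 0.81 and the 218 that fell one of -0.80.

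**Figure D2:**
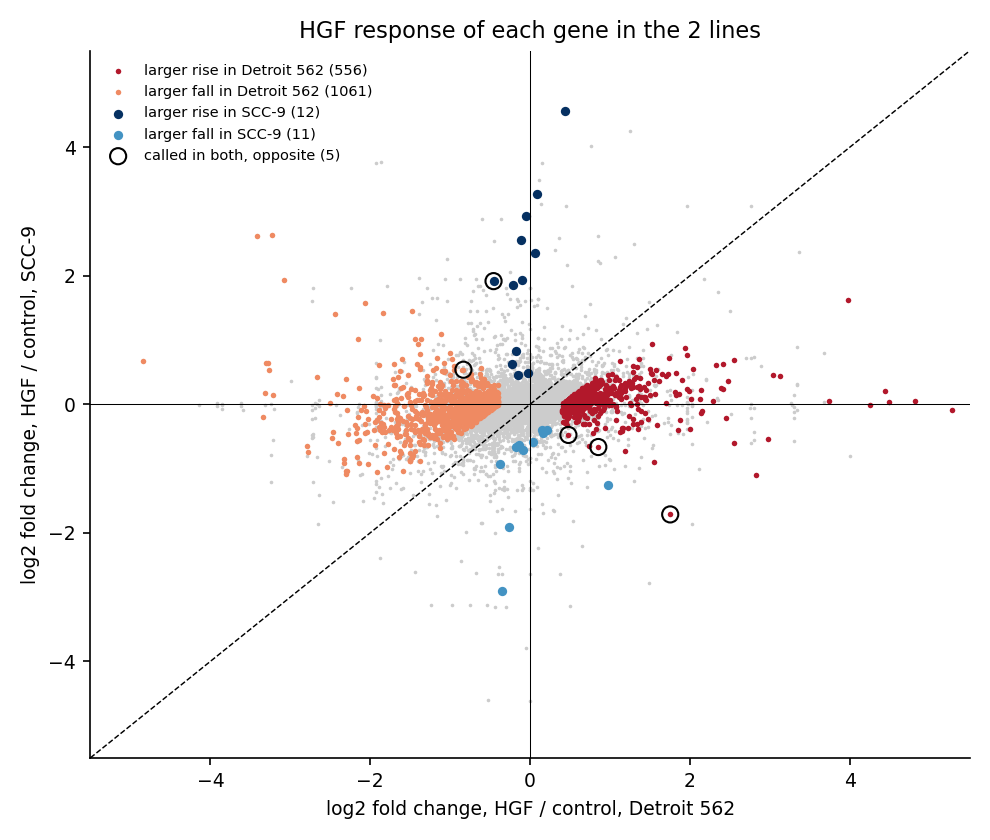
Log2 fold change of HGF over control in Detroit 562 (x axis) and SCC-9 (y axis) for each of the 15475 genes tested; colours mark the 4 classes of called differences, rings the 5 genes called in opposite directions, the dashed line equal responses, and 3 genes lie outside the axes. Most coloured genes lie far from 0 along the Detroit 562 axis and close to 0 along the SCC-9 axis, 556 to the right and 1061 to the left. The classes were formed from these same responses, so this follows in part from their definition.

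The number of called differences depended on the pairing. Without the replicate block 137 differences were called, 63 above 0 and 74 below 0, all among the 1867. SCC-9 had 0 called responses by edgeR without the block, and 19 by DESeq2 with a fold change prior. With the block, 2390 of the 15475 genes tested had an unadjusted p under 0.05 in SCC-9 by edgeR. Without the block 641 did, a smaller share than the 0.05 that chance alone would give. None of the 26 gene lists then held more than 1 called difference in a direction. With HGF 3 of both lines left out and the block kept, 1916 differences were called, of which 1425 were among the 1867. Among genes with a mean normalized count of at least 50 in both lines, where the low counts of a nearly silent gene play no part, 1452 of 11879 differed (12.2%).

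Most ERK targets and feedback genes rose in Detroit 562, and fewer of them rose in SCC-9. Of 24 measured members 18 rose and 1 fell in Detroit 562 and 10 rose in SCC-9. By edgeR 0 fell in SCC-9 (2 were below 0 at an unadjusted p under 0.05, and DESeq2 with the replicate block called 0). At that unadjusted p 21 members were above 0 in Detroit 562 and 19 in SCC-9, so the lines differed more in the size of the rise. The difference was called above 0 in 12 and below 0 in 1, against 4.19% and 7.88% of all genes, the shares against which the counts of each list are to be read, and the median response was 0.80 in Detroit 562 and 0.37 in SCC-9, against -0.01 and 0.00 over all genes. With HGF 3 of both lines left out the counts were 14 and 0.

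DUSP6 (chr12:89347232-89353271, GRCh38, minus strand) encodes a phosphatase that removes the activating phosphates from ERK. It had 240, 218 and 227 normalized counts in Detroit 562 control and 709, 526 and 743 with HGF. In SCC-9 it had 2394, 2301 and 2042 in control and 3228, 2990 and 3137 with HGF. Treated and control libraries did not overlap in either line, and SCC-9 control already stood above Detroit 562 HGF. The response was 1.52 in Detroit 562 and 0.48 in SCC-9, a difference of 1.05 ± 0.15 (SE, adjusted p = 0.00031).

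SPRY4, a Sprouty inhibitor of receptor tyrosine kinase signalling, rose by 1.94 in Detroit 562 and by 0.88 in SCC-9 on the log2 scale (difference 1.06, SE 0.22, adjusted p = 0.00446). PHLDA1, an early target of growth factor receptors, rose by 1.57 and 0.53 (difference 1.04, adjusted p = 0.00167). HBEGF, a ligand of the EGF receptor, went from 101, 102 and 122 to 274, 232 and 468 normalized counts in Detroit 562. In SCC-9 it went from 662, 617 and 416 to 884, 728 and 582, which was not called (0.38), and the difference was 1.17 ± 0.16 (SE, adjusted p = 0.000288). SPRED3, another inhibitor of the cascade, had the largest difference of the list at 1.19 (SE 0.35, adjusted p = 0.0287).

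Not every ERK target separated the lines. ETV1, a transcription factor of the ETS family, rose by 0.69 in Detroit 562 and by 0.73 in SCC-9, with a difference of -0.04 (95% interval -0.77 to 0.69). The receptor EPHA2 gave 0.34 and 0.36 and a difference of -0.02 (-0.20 to 0.17), and CCND1, cyclin D1, gave 0.24 and 0.30 and a difference of -0.07 (-0.25 to 0.12). SPRY1 was the member with a called difference below 0, at -0.47, without a call in either line.

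The AP-1 family, dimers of FOS and JUN proteins, split. Of 10 measured factors the difference was called above 0 in 1 and below 0 in 3 (1 and 3 also with HGF 3 of both lines left out, and 3 above 0 without pair 1 of Detroit 562). FOSL1, the FOS relative that is itself an ERK target, had 4031, 5914 and 11652 normalized counts in Detroit 562 control and 19216, 16120 and 28069 with HGF. The SCC-9 libraries held 4230, 3667 and 2736 in control and 5581, 4402 and 4575 with HGF. It rose by 1.65 in Detroit 562, against 0.47 in SCC-9 without a call (difference 1.18, SE 0.20, adjusted p = 0.00126).

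FOS, the immediate early member, moved the other way. It had 10514, 375 and 1260 normalized counts in Detroit 562 control and 3969, 147 and 204 with HGF, so it fell within each pair while the controls themselves spread widely. Its counts in SCC-9 were 1354, 1279 and 2729 in control and 941, 1137 and 1906 with HGF. The response was -1.72 in Detroit 562 and -0.41 in SCC-9, where it was not called, and the difference was -1.31 (SE 0.23, adjusted p = 0.00176). FOSB differed by -1.30 with pair differences that overlapped between the lines, and JUND by -0.48.

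A loose form of the AP-1 motif, TGANTCA with any base at N, was looked up in the promoters of the called genes. The windows of 300 bases ran from 250 before to 50 after the RefSeq gene start (GRCh38.p14), and both strands were read. TGANTCA was present in 25 of 406 matched promoters of genes with the larger rise in Detroit 562 (6.16%), in 45 of 761 with the larger fall (5.91%), in 5.01% of the 11487 matched genes tested and in 7.76% of all 27305 promoters. The motif TGACNNNGC of antioxidant response elements was in 14%, 12.5%, 14.7% and 13.6%, and the NF-κB motif (GGG, any 5 bases, CC) in 75.9%, 72.7%, 72.3% and 58%. A match is only a run of letters, and neither class held a motif at a share far from that of the genes tested. Examples are 3 members of the gene lists with a called difference and TGANTCA within 200 to 11 bases before the start. These 3 had windows that lay outside the gene as the counted annotation draws it. They are shown with the match in capitals: IVL (chr1:152908346-152908535, plus strand), a cornified envelope gene that fell in Detroit 562, with the match 123 bases before the start, MMP7 (chr11:102530758-102530947, minus strand), a matrix protease that fell more in SCC-9, with the match 67 bases before it, and SAMD9L (chr7:93148396-93148585, minus strand), an interferon-induced gene that fell in both lines, with the match 139 bases before it.
IVL: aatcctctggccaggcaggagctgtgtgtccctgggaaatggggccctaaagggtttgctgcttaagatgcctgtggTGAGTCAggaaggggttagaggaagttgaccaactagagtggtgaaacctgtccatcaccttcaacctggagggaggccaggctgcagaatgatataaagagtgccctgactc
MMP7: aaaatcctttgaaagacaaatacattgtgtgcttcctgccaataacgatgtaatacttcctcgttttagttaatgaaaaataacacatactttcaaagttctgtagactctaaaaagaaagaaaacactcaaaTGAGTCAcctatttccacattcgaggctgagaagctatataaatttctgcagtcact
SAMD9L: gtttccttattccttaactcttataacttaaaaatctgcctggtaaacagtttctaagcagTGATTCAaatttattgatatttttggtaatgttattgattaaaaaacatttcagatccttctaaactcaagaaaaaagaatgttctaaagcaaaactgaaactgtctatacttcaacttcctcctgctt

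Genes of the plasminogen system and of matrix breakdown rose in part and fell in part in Detroit 562. Of 22 members of the list, 10 rose and 6 fell in Detroit 562, 2 rose and 1 fell in SCC-9, and the difference was called above 0 in 6 and below 0 in 4 (7 and 4 with HGF 3 of both lines left out). PLAUR, the urokinase receptor, had 369, 397 and 713 normalized counts in Detroit 562 control and 1047, 817 and 1499 with HGF. SCC-9 libraries had 3019, 2829 and 2696 in control and 3835, 3219 and 3346 with HGF. Its response was 1.20 in Detroit 562 and 0.28 in SCC-9, where it was not called (difference 0.92, SE 0.12, adjusted p = 0.000197). The gelatinase gene MMP2 gave 0.66, a call, and -0.30 (difference 0.96, adjusted p = 0.000614).

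MMP1 (chr11:102789920-102798160, minus strand), interstitial collagenase, had 6130, 5467 and 11014 normalized counts in Detroit 562 control and 40334, 33761 and 95849 with HGF. In SCC-9 it was near silent, with 9.59, 19.1 and 23.5 in control and 5.75, 3.79 and 14.8 with HGF. It rose by 2.82 in Detroit 562, and the difference of 3.93 (SE 0.58, adjusted p = 0.000477) was taken against a few reads in SCC-9.

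Other members of the system went down. SERPINB2, plasminogen activator inhibitor 2, fell in Detroit 562 (-0.95) and gave 0.54 in SCC-9 without a call, a difference of -1.49 (adjusted p = 0.00488), and it overlaps SERPINB10 on its strand. PLAT, tissue plasminogen activator, fell by 0.68 in Detroit 562 and gave 0.04 in SCC-9, and TIMP2, a protease inhibitor, fell by 0.69 and gave -0.22.

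Several members of the list of integrins and laminins rose in Detroit 562. Of 20 integrins and laminins 7 rose and 1 fell there. In SCC-9 edgeR called 0 (8 above 0 and 4 below 0 at an unadjusted p under 0.05, and 0 called by DESeq2 with the replicate block). The difference was called above 0 in 4 and below 0 in 1 (5 and 1 with HGF 3 of both lines left out). ITGA5, the alpha 5 chain of the fibronectin receptor, had 881, 881 and 1261 normalized counts in Detroit 562 control and 1866, 1754 and 2739 with HGF. The SCC-9 libraries held 4594, 4771 and 4642 in control and 5295, 5062 and 5133 with HGF. Its difference was 0.92 (SE 0.07, adjusted p = 8.54e-06). ITGB5 gave 0.72, a call, and -0.02, a difference of 0.74, and LAMB2 fell by 0.79 in Detroit 562 against -0.21 in SCC-9.

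Of 23 transcription factors, junction proteins and other genes of epithelial-mesenchymal transition the difference was called above 0 in 3 and below 0 in 3, against 4.19% and 7.88% of all genes (4 and 3 with HGF 3 of both lines left out). The list had a median response of -0.13 in Detroit 562 and -0.07 in SCC-9, and a median difference of 0.00. The transcription factors TWIST1 and SNAI2 rose in Detroit 562 by 0.61 and 0.54 and gave -0.05 and -0.03 in SCC-9. The tight junction gene CLDN1 fell by 1.02 in Detroit 562 against -0.35 in SCC-9 (difference -0.67, adjusted p = 0.00033), and CLDN4 fell by 0.77 against -0.16. CDH1, E-cadherin, fell by 0.49 in Detroit 562, from 13371, 12296 and 10667 to 8440, 8843 and 8541 normalized counts. In SCC-9 it went from 18565, 19398 and 20562 to 18978, 19189 and 20244, so its control and HGF libraries overlapped there.

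NF-κB targets showed a mixed pattern, with 8 differences called above 0 and 3 below 0 among 25 measured genes (6 and 3 with HGF 3 of both lines left out). TNFAIP3 (chr6:137867188-137883312, plus strand), the ubiquitin-editing inhibitor A20 of NF-κB, had 766, 1060 and 2385 normalized counts in Detroit 562 control and 2917, 2380 and 5656 with HGF. Its counts in SCC-9 were 3927, 3534 and 3259 in control and 3752, 2908 and 3106 with HGF. The second treated Detroit 562 library lay just below the third control, while every pair rose. The response was 1.44 in Detroit 562 and -0.14 in SCC-9 (difference 1.57, 95% interval 1.24 to 1.91, adjusted p = 3.61e-05).

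The interleukin 1 genes rose in Detroit 562 from low levels. IL1A (chr2:112773915-112784590, minus strand) had 33.1, 49 and 36.7 normalized counts in Detroit 562 control and 116, 66 and 255 with HGF. For SCC-9 the counts were 3171, 2358 and 1610 in control and 3540, 2347 and 1989 with HGF, far above both Detroit 562 groups. Its difference was 1.68 (SE 0.30, adjusted p = 0.00167), and that of IL1B 1.33 (adjusted p = 0.00653). CSF2 had at most 14.9 normalized counts in Detroit 562 and overlapping pair differences. PTGS2, cyclooxygenase 2, rose in both lines, by 1.29 and 0.60. The chemokine gene CXCL1 fell by 0.69 in Detroit 562 and gave 0.07 in SCC-9.

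**Figure D3:**
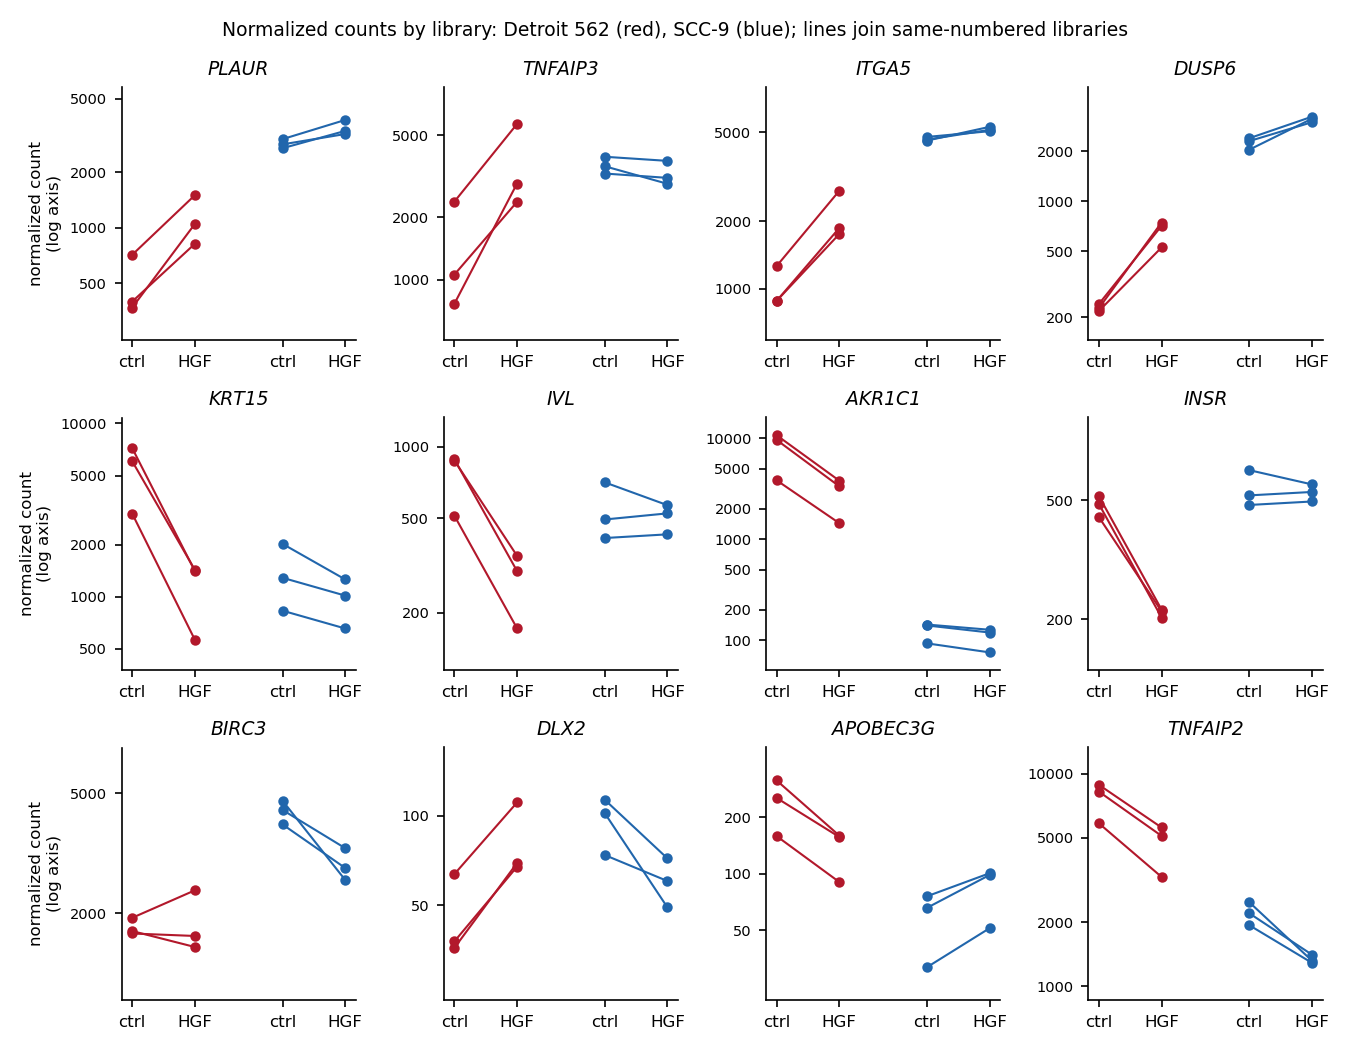
Normalized counts (log axis) of 12 genes in each library of Detroit 562 (red) and SCC-9 (blue), with lines joining control and HGF libraries of the same replicate number. PLAUR climbs in Detroit 562 from 369, 397 and 713 to 1047, 817 and 1499 and stays between 2696 and 3835 in SCC-9, KRT15 drops steeply in Detroit 562, DLX2 and APOBEC3G cross over, and TNFAIP2 drops alike in both lines.

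For the enzymes and transporters of glycolysis, the pathway the study was designed around, the differences ranged from -0.41 to 0.53. Of 22 members 5 rose in Detroit 562, and in SCC-9 edgeR called 0 (4 above 0 and 1 below 0 at an unadjusted p under 0.05, and 0 called by DESeq2 with the replicate block). The difference was called above 0 in 3 and below 0 in 1, against 4.19% and 7.88% of all genes, and 13 of the 22 were at an unadjusted p under 0.05, against 33%. It was called in 5 and 2 without pair 3 of Detroit 562, and in 5 and 2 with HGF 3 of both lines left out. The medians were 0.22 in Detroit 562 and 0.04 in SCC-9. HK2, hexokinase 2, the entry enzyme, had 1771, 2011 and 2588 normalized counts in Detroit 562 control and 2914, 3014 and 4097 with HGF. SCC-9 libraries had 3230, 3201 and 2852 in control and 3560, 3285 and 3304 with HGF. Groups did not overlap in either line, and the treated Detroit 562 libraries overlapped the range of SCC-9. The response was 0.65 and 0.13, a difference of 0.53 (SE 0.07, adjusted p = 0.000296). LDHA, lactate dehydrogenase A, differed by 0.43 and SLC16A1, a lactate carrier, by 0.45, both with a response of 0.01 in SCC-9, and PFKFB3, a regulator of the pathway, by -0.41.

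All 40 ribosome biogenesis genes had a difference above 0, from 0.10 to 0.69, but few passed the size threshold. In Detroit 562 21 of them rose, and in SCC-9 edgeR called 0 (9 above 0 at an unadjusted p under 0.05, and 0 called by DESeq2 with the replicate block). The difference was called in 5, with 38 at an unadjusted p under 0.05. The largest was RRP9, a component of the small subunit processome, with responses of 0.77 and 0.08 (difference 0.69, SE 0.12, adjusted p = 0.00146). The medians were 0.41 and 0.09. The count was 2 without pair 1 and 17 without pair 3 of Detroit 562, 8 or 9 without pair 3 of SCC-9, and 21 without HGF 3 of both lines.

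Among the other rises in Detroit 562, SOX9, a transcription factor of progenitor cells, had 46.3, 75.1 and 160 normalized counts in control and 253, 205 and 551 with HGF. In SCC-9 it had 1821, 1614 and 1736 in control and 1980, 1690 and 2133 with HGF (difference 1.70, SE 0.16, adjusted p = 2e-05). IL18R1, a chain of the interleukin 18 receptor, rose by 1.96 in Detroit 562 and gave 0.24 in SCC-9, and shares reads with IL1RL1, which overlaps it. AOX1, aldehyde oxidase, rose by 1.48 and gave -0.23. The chorionic gonadotropin genes CGB8, CGB3 and CGB1 and the overlapping CTB-60B18.6 rose by 1.16 to 1.39, and these near-identical copies are uncertain as separate genes.

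S1PR1 and ESM1 rose in both lines. S1PR1 (chr1:101236888-101241518, plus strand), a receptor for sphingosine 1-phosphate, had 5.67, 2.18 and 11.9 normalized counts in Detroit 562 control and 55.6, 21.6 and 96.4 with HGF. The SCC-9 libraries held 489, 452 and 590 in control and 694, 521 and 879 with HGF. Its responses were 3.12 and 0.43 (difference 2.69, SE 0.28, adjusted p = 4.71e-05). ESM1, a secreted proteoglycan of the angiogenic response, rose by 3.97 in Detroit 562, 1.63 in SCC-9 and 3.82 in FaDu, and the difference was 2.34 (SE 0.45). VEGFC, a lymphangiogenic factor, rose by 1.04 in Detroit 562 and gave 0.00 in SCC-9. Of 14 angiogenic factors the difference was called above 0 in 3 and below 0 in 2 (4 and 2 with HGF 3 of both lines left out).

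Some of the largest fitted differences rested on almost no reads. ZNF331 and ZNF829, zinc finger genes, had raw counts of 0 in all 3 Detroit 562 controls and 2, 2 and 5 and 1, 2 and 3 with HGF, and were called at the edge of detection, a call that was lost without HGF 3 of both lines. MYEF2 had 1.89, 1.09 and 7.56 normalized counts in Detroit 562 control and 11.9, 7.97 and 39 with HGF, against 150, 120 and 72.6 and 128, 87.1 and 76.8 in SCC-9.

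**Figure D4:**
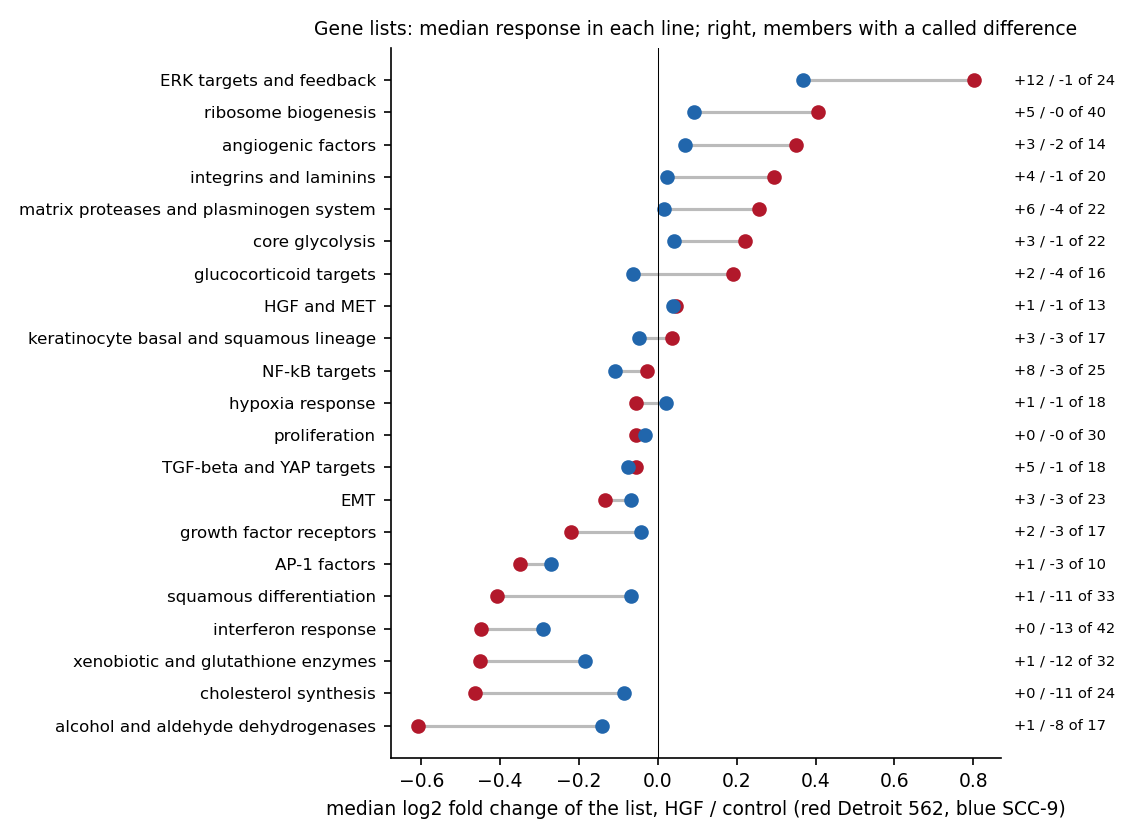
Median log2 fold change of HGF over control in Detroit 562 (red) and SCC-9 (blue) for each gene list, with the numbers of called differences above and below 0. The medians of ERK targets lie at 0.80 and 0.37 and those of cholesterol synthesis at -0.46 and -0.09.

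Many genes of squamous differentiation fell in Detroit 562, and few were called in SCC-9. Of 33 measured members 14 fell and 2 rose in Detroit 562, 2 fell in SCC-9, and the difference was called below 0 in 11 and above 0 in 1 (9 and 0 with HGF 3 of both lines left out). The medians were -0.41 and -0.07. IVL (chr1:152908545-152911886, plus strand), involucrin, a scaffold of the cornified envelope, had 884, 873 and 512 normalized counts in Detroit 562 control and 300, 347 and 172 with HGF. Its counts in SCC-9 were 412, 494 and 707 in control and 427, 524 and 567 with HGF. The Detroit 562 groups did not overlap and the SCC-9 groups did. The response was -1.48 and -0.07, a difference of -1.41 (SE 0.18, adjusted p = 0.000199).

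TGM1, the transglutaminase that cross-links the envelope, had 906, 768 and 419 normalized counts in Detroit 562 control and 200, 217 and 160 with HGF. For SCC-9 the counts were 120, 198 and 172 in control and 115, 166 and 163 with HGF (difference -1.70, SE 0.18, adjusted p = 5.27e-05). KRT13, a keratin of the suprabasal oral mucosa, fell by 2.05 in Detroit 562, with at most 64 normalized counts in SCC-9 (difference -1.95, adjusted p = 0.00936). ZNF750, a transcription factor of terminal differentiation, fell by 2.17 and gave -0.45 in SCC-9 (difference -1.72, SE 0.28). A2ML1 and KRT78 differed by -1.68 and -1.44 from few reads in 1 of the lines. KLK5, an epidermal protease, was the member with a called difference above 0, with overlapping pair differences.

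The basal keratins KRT15 and KRT5 fell in Detroit 562, while the list of basal and lineage genes went both ways there. KRT15 (chr17:41513743-41522529, minus strand) had 7213, 6060 and 3021 normalized counts in Detroit 562 control and 1410, 1432 and 566 with HGF. SCC-9 libraries had 832, 1287 and 2020 in control and 656, 1016 and 1260 with HGF, lower in every pair but with overlapping groups. It fell in both lines, by 2.28 and 0.46, and the difference was -1.81 (SE 0.15, adjusted p = 1.03e-05). KRT5 fell by 0.97 in Detroit 562 and gave -0.16 in SCC-9. Of 17 basal and lineage genes 4 rose and 3 fell in Detroit 562, and 1 fell in SCC-9. The difference was called above 0 in 3 and below 0 in 3 (3 and 3 with HGF 3 of both lines left out). The medians were 0.035 and -0.049.

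Further large falls in Detroit 562 among genes measured in both lines were those of PRODH, proline dehydrogenase (-2.79, and -0.65 without a call in SCC-9), CIITA, the transactivator of MHC class II genes (-1.83 and -0.01), WNT5A, a ligand of non-canonical Wnt signalling (-1.62 and 0.10), SYNPO2 (-2.17 and -0.37), SERPINB13 (-2.47 and -0.52), and the mucin MUC15 (-1.89 and -0.10). Their differences ranged from -2.13 to -1.72. MGAM and KRT3 fell by 1.59 and 1.22 in Detroit 562 and gave 0.27 and 0.53 in SCC-9 without a call. MUC15, MGAM and KRT3 were also called without the replicate block. CYP4B1, a monooxygenase, had 265, 248 and 96.1 normalized counts in Detroit 562 control and 16.9, 27.3 and 15.9 with HGF. In SCC-9 it had 33.6, 50.5 and 64.4 in control and 33.5, 38.8 and 57.1 with HGF, and the difference was -3.14 (SE 0.32, adjusted p = 5.08e-05).

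Many enzymes that handle foreign compounds, aldehydes and alcohols fell in Detroit 562. Of 32 xenobiotic and glutathione genes 17 fell and 1 rose in Detroit 562, 6 fell and 1 rose in SCC-9, and the difference was called below 0 in 12 and above 0 in 1 (10 and 1 with HGF 3 of both lines left out). AKR1C1 (chr10:4963253-4983283, plus strand), an aldo-keto reductase of steroids and carbonyls, had 9652, 10739 and 3840 normalized counts in Detroit 562 control and 3349, 3808 and 1444 with HGF. The SCC-9 libraries held 93, 143 and 140 in control and 75.7, 127 and 119 with HGF. It fell in every Detroit 562 pair although the third control stood close to the treated libraries of the other pairs. Its difference was -1.25 (SE 0.22, adjusted p = 0.00163), and its paralogs AKR1C2 and AKR1C3 both gave -1.22.

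GCLC, the catalytic subunit of glutathione synthesis, fell by 1.08 in Detroit 562 and gave -0.19 in SCC-9 (difference -0.89, adjusted p = 0.00013). The overlapping UGT1A genes of glucuronidation share most of their reads and fell together in both lines, UGT1A10 by 1.47 and 0.82. The dioxin-responsive cytochromes CYP1B1 and CYP1A1 fell in both lines with no called difference, by 0.97 and 0.68 and by 0.48 and 0.68. GPX2 and MGST1 of the same list had called differences of -2.21 and -2.67 that include reads in SCC-9 HGF 3, which held 52.2 and 136 normalized counts against 8.63 to 14.2 and 1.89 to 9.53 in the other 5 SCC-9 libraries.

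Of 17 alcohol and aldehyde dehydrogenases 11 fell and 1 rose in Detroit 562, 1 fell in SCC-9, and the difference was called below 0 in 8 and above 0 in 1. ALDH1A3, a retinaldehyde dehydrogenase, had 42852, 43410 and 43011 normalized counts in Detroit 562 control and 31824, 33157 and 21388 with HGF. Its counts in SCC-9 were 4458, 4678 and 4919 in control and 4433, 4557 and 5371 with HGF. It fell by 0.61 in Detroit 562 and the difference was -0.63 (SE 0.14, adjusted p = 0.00603).

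ADH1B had 2393, 2029 and 648 normalized counts in Detroit 562 control and 172, 288 and 62.2 with HGF, a fall of 3.31, and shares nearly all of its reads with the overlapping ADH1C. Its SCC-9 level was at most 1.97, with 1 or 2 raw counts in each library. The call of its difference was lost without HGF 3 of both lines, and also without SCC-9 HGF 1 or HGF 2. ATP12A, a proton pump, had at most 2.87 normalized counts in SCC-9, and its call was lost without SCC-9 HGF 1. MPPED2 had at most 10.8 there, and its call was lost without HGF 3 of both lines. ALDH3A1, an aldehyde dehydrogenase, stood at 59.1 in SCC-9 HGF 3 and at most at 13.3 in the other 5 SCC-9 libraries. ADH7, an alcohol dehydrogenase of stratified epithelia, went from 69.9, 43.6 and 22.7 to 4.96, 2.28 and 0 in Detroit 562. Its difference of -4.13 was not called, with a wide error (SE 2.48, adjusted p = 0.283). The dehydrogenase list had 4 or 5 called differences below 0 without any 1 pair of SCC-9, and 3 below 0 and 1 above 0 without HGF 3 of both lines. DEGS2, a sphingolipid desaturase, fell by 2.07 in Detroit 562, while in SCC-9 it went from 2.88, 3.81 and 4.09 to 12.5, 8.52 and 11.8 without a call.

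Many interferon-stimulated genes fell in Detroit 562, and some of them also in SCC-9. Of 42 measured genes 24 fell in Detroit 562 and 9 in SCC-9. At an unadjusted p under 0.05, with no minimum size, 31 were below 0 in Detroit 562 and 30 in SCC-9. By edgeR 0 rose in either line (0 also at an unadjusted p under 0.05, and 0 by DESeq2 with the replicate block). The difference was called below 0 in 13, and above 0 edgeR called 0 (2 at an unadjusted p under 0.05, and 0 by DESeq2 with the replicate block). Without pair 1 of Detroit 562 8 were called below 0 and 1 above 0, and with HGF 3 of both lines left out 13 and 1. The medians were -0.45 and -0.29. GBP2, a guanylate-binding protein, fell by 2.14 in Detroit 562 and by 0.91 in SCC-9, a difference of -1.23 (SE 0.22, adjusted p = 0.00157). IRF1, an interferon regulatory factor, had 2749, 2632 and 1867 normalized counts in Detroit 562 control and 1332, 1403 and 883 with HGF. For SCC-9 the counts were 1940, 2006 and 2147 in control and 1516, 1694 and 1588 with HGF. The groups did not overlap in either line, the SCC-9 response of -0.34 lay under the size threshold, and the difference was -0.66 (SE 0.08, adjusted p = 8.36e-05). OAS2, a sensor enzyme of double-stranded RNA, fell by 1.23 in Detroit 562 and gave -0.24 in SCC-9, and SAMD9L, shown above with its promoter, fell by 1.08 and 0.50 in the 2 lines.

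All 24 genes of cholesterol synthesis had a difference below 0, from -0.89 to -0.02, and 11 were called. In Detroit 562 15 of them fell and in SCC-9 1 did, with medians of -0.46 and -0.09, and the count was 11 also without HGF 3 of both lines. INSIG1, the sterol sensor that retains SREBP in the endoplasmic reticulum, had 1486, 1255 and 1107 normalized counts in Detroit 562 control and 731, 595 and 528 with HGF. SCC-9 libraries had 805, 765 and 908 in control and 741, 695 and 773 with HGF (difference -0.89, SE 0.11, adjusted p = 0.000187). SREBF2, the transcription factor of the pathway, fell by 0.75 and gave -0.13, and HMGCS1 fell by 0.76 and gave -0.12.

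Of 17 receptors of growth factors 2 rose and 7 fell in Detroit 562, against 7.13% and 14.4% of all genes, and 2 fell in SCC-9. The difference was called above 0 in 2 and below 0 in 3, against 4.19% and 7.88% (2 and 3 with HGF 3 of both lines left out). INSR, the insulin receptor, had 485, 515 and 438 normalized counts in Detroit 562 control and 202, 215 and 212 with HGF. In SCC-9 it had 481, 518 and 629 in control and 494, 532 and 564 with HGF. Both lines thus started from like levels, and the response was -1.19 and -0.03 (difference -1.16, SE 0.13, adjusted p = 7.56e-05). AXL rose by 0.66 in Detroit 562 and gave -0.04, FGFR3 fell in both, by 1.18 and 0.47, and DDR1, a collagen receptor, fell by 0.80 and gave -0.22. FGFR1 rose by 1.33 in Detroit 562 but with at most 20.1 normalized counts in SCC-9 no difference was called (0.62, 95% interval -0.19 to 1.43).

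MET itself changed little and stood higher in Detroit 562. It had 31045, 30833 and 33553 normalized counts in Detroit 562 control and 31501, 34190 and 40482 with HGF. The SCC-9 libraries held 12407, 11296 and 11088 in control and 12063, 10520 and 10549 with HGF. The response was 0.15 and -0.07, and the difference of 0.22 (SE 0.07, adjusted p = 0.0461) lay under the size threshold. Of 13 genes of HGF and MET signalling, CD44, a co-receptor, rose in Detroit 562 (0.71 against 0.17, difference 0.55) and the plexin PLXNB1 fell (-0.72 against -0.07, difference -0.65). These were the called differences of the list, 1 above 0 and 1 below 0, and with HGF 3 of both lines left out there were 1 and 2.

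Few genes had the larger response in SCC-9, 12 with a rise and 11 with a fall. Of the 12 with the larger rise there, 7 had fewer than 10 raw counts in SCC-9 HGF 1 and HGF 2 and stood higher in HGF 3 alone: MAP9, SPG20, IVD, MGST1, SLFN11, EPDR1 and SYK, named for this pattern after their values were seen. IVD, for example, had 1, 10 and 2 raw counts in control and 6, 8 and 94 with HGF. In each of them the excess in HGF 3 was 1.64 to 2.37% of the raw count in FaDu HGF 3. Of the 87 genes that rose in SCC-9, 12 (13.8%) had a control level under 5% of that in FaDu, against 1 of the 218 that fell (0.459%) and 1.98% of all genes.

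The other rises in SCC-9 were seen in all 3 pairs. PTPRZ1 (chr7:121873089-122062036, plus strand), a receptor phosphatase, had 201, 186 and 178 normalized counts in SCC-9 control and 328, 327 and 352 with HGF. In Detroit 562 it had 3831, 3885 and 2998 in control and 2688, 3353 and 3410 with HGF, overlapping groups. The response was 0.83 in SCC-9 and -0.18 in Detroit 562, a difference of -1.01 (95% interval -1.42 to -0.61, adjusted p = 0.00234), and FaDu rose by 0.82. STYK1, a kinase-like membrane protein, had 157, 130 and 114 in SCC-9 control and 215, 202 and 204 with HGF, and differed by -0.85 (SE 0.17, adjusted p = 0.00353). ZNF860 and RGS2, a regulator of G protein signalling, rose by 0.46 and 0.48 in SCC-9 with differences of -0.62 and -0.51, and the pair differences of RGS2 overlapped between the lines. KCNAB1 had 2, 3 and 10 raw counts in SCC-9 control and 11, 20 and 28 with HGF. Without SCC-9 HGF 3, only KCNAB1 stayed in the class, and 69 genes were called in SCC-9 in all. Without HGF 3 of both lines the class held KCNAB1 and PTPRZ1.

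BIRC3 (chr11:102317450-102339403, plus strand), an inhibitor of apoptosis and NF-κB target, fell in SCC-9. It had 4394, 3936 and 4716 normalized counts in SCC-9 control and 3284, 2824 and 2578 with HGF. In Detroit 562 it had 1745, 1713 and 1930 in control and 1546, 1681 and 2380 with HGF. The SCC-9 groups did not overlap and the Detroit 562 groups did. The response was -0.59 in SCC-9 and 0.04 in Detroit 562, a difference of 0.62 (SE 0.12, adjusted p = 0.00361), which was 0.35 and not called without HGF 3 of both lines.

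SLC2A6, a glucose transporter, had 402, 330 and 310 normalized counts in SCC-9 control and 287, 264 and 235 with HGF, against 169, 154 and 153 and 202, 166 and 184 in Detroit 562 (difference 0.62, adjusted p = 0.0167). ANK1, an ankyrin, fell by 0.71 in SCC-9 with overlapping pair differences. The SCC-9 responses of SLC2A6 and ANK1 were not called without SCC-9 HGF 3, nor without HGF 3 of both lines. Their differences were 0.62 and 0.51 without SCC-9 HGF 3, where that of ANK1 was not called, and both were called without HGF 3 of both lines, at 0.59 and 0.67. MMP7, shown above with its promoter, fell by 0.93 in SCC-9 and gave -0.37 in Detroit 562. Without SCC-9 HGF 3 the class held BIRC3, CEACAM6, HOXC13 and MMP7 of its 11 genes. CEACAM6 and the overlapping AC011513.3 were also in this class, from raw counts of 7, 43 and 25 in control and 2, 11 and 7 with HGF for CEACAM6 in SCC-9, while Detroit 562 held 60074, 63072 and 76179 in control, so the SCC-9 reads were few beside those of the other line.

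**Figure D5:**
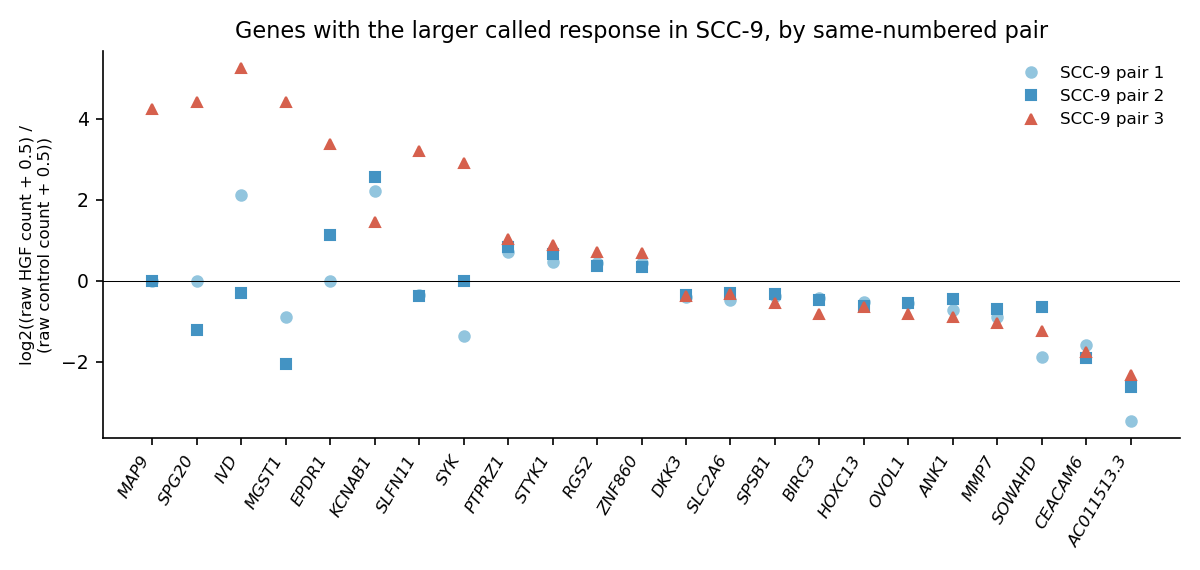
Log2 ratio of raw counts plus 0.5, HGF over control, in each SCC-9 pair for the 12 genes with the larger rise and the 11 with the larger fall in SCC-9; red triangles mark pair 3. In 7 of the 12 rising genes, all with fewer than 10 counts in HGF 1 and HGF 2, pair 3 stands apart, while PTPRZ1 and STYK1 lie above 0 and the 11 genes that fell lie below 0 in all 3 pairs.

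The 5 genes called in opposite directions were DLX2, APOBEC3G, KREMEN2, SORCS3 and SLFN11. DLX2 (chr2:172099439-172102900, minus strand), a homeobox gene, had 37.8, 35.9 and 63.7 normalized counts in Detroit 562 control and 67.5, 69.4 and 111 with HGF. Its counts in SCC-9 were 73.8, 113 and 102 in control and 60.4, 72 and 49.2 with HGF. The groups did not overlap within either line, and the response was 0.85 and -0.66 (difference 1.52, SE 0.26, adjusted p = 0.00139).

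APOBEC3G (chr22:39077005-39087743, plus strand), a cytidine deaminase of antiviral defence, had 315, 254 and 159 normalized counts in Detroit 562 control and 160, 157 and 90.3 with HGF. For SCC-9 the counts were 75.8, 65.7 and 31.7 in control and 101, 98.5 and 51.2 with HGF. It fell in all 3 Detroit 562 pairs and rose in all 3 SCC-9 pairs, with responses of -0.83 and 0.54 (difference -1.37, SE 0.19, adjusted p = 0.000296).

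KREMEN2 (chr16:2963944-2968383, plus strand), a receptor of the Wnt inhibitor DKK1, gave 0.48 in Detroit 562, from 41.6, 32.7 and 18.4 to 56.5, 42.1 and 30.5 normalized counts. In SCC-9 it gave -0.48, from 200, 273 and 262 to 150, 194 and 182 (difference 0.96, SE 0.20, adjusted p = 0.00523). SORCS3 had raw counts of 10, 4 and 15 and 30, 27 and 33 in Detroit 562 and of 10, 7 and 13 and 4, 3 and 2 in SCC-9. SLFN11 rested on SCC-9 HGF 3, with 68 raw counts against 3 to 8 in the other 5 SCC-9 libraries. Without SCC-9 HGF 3, or without HGF 3 of both lines, no gene was called in both lines in opposite directions.

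Some genes fell in both lines with no called difference. TNFAIP2 (chr14:103123442-103137439, plus strand), a tumour necrosis factor-inducible gene, had 8876, 8247 and 5846 normalized counts in Detroit 562 control and 5588, 5101 and 3268 with HGF. SCC-9 libraries had 1935, 2203 and 2485 in control and 1287, 1406 and 1317 with HGF. Every treated library lay below every control of its line. The response was -0.73 and -0.72, and the difference of -0.01 had a 95% interval of -0.24 to 0.21.

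JDP2 (chr14:75427716-75474111, plus strand), a repressor of AP-1, went from 4635, 4242 and 3548 to 2996, 2842 and 2242 normalized counts in Detroit 562. In SCC-9 it went from 366, 379 and 389 to 240, 248 and 253. The response was -0.62 in both, with a difference of -0.01 (95% interval -0.31 to 0.29). FBXO32, a ubiquitin ligase subunit, fell by 1.12 and 1.27 (difference 0.15, interval -0.54 to 0.84), OLR1, a receptor of oxidized lipoprotein, by 1.08 and 0.95 (difference -0.13, interval -0.46 to 0.20), and SLC29A3, a nucleoside transporter, by 0.94 and 0.74 (difference -0.20, interval -0.59 to 0.18). STON1 and the overlapping STON1-GTF2A1L fell by 0.94 and 0.90 and by 0.84 and 0.87.

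For others called in both lines the interval of the difference was wide. The neurotensin receptor NTSR1 rose by 2.49 in Detroit 562, from 84.1, 117 and 221 to 771, 504 and 1047 normalized counts, and by 1.45 in SCC-9, from 13.4, 8.58 and 5.11 to 29.7, 19.9 and 25.6. Its difference was 1.04 (95% interval -0.08 to 2.17). WNT4 fell by 1.87 and 1.15 (interval -1.64 to 0.20) and was called in the difference without HGF 3 of both lines (-1.47). ATOH8 fell by 1.16 and 1.74 (interval -0.35 to 1.52). OLFML2A fell by 1.20 and 0.77, with an adjusted p of 0.102 for the difference of -0.43, which was called without SCC-9 HGF 3. CXCL11, an interferon-induced chemokine, fell by 0.55 in SCC-9, from 2507, 2548 and 2408 to 1713, 1866 and 1525, and had 1 raw count in each Detroit 562 control and 0 in each HGF library.

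No called difference was seen among proliferation genes. Of 30 members edgeR called 0 differences, with 3 at an unadjusted p under 0.05, and 0 with HGF 3 of both lines left out. It called 0 responses in either line, with 3 above 0 and 13 below 0 in Detroit 562 and 2 above 0 and 8 below 0 in SCC-9 at an unadjusted p under 0.05. DESeq2 with the replicate block called 0 of each. The differences ranged from -0.27 to 0.13 on the log2 scale, with medians of -0.06 in Detroit 562 and -0.03 in SCC-9.

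Glucocorticoid targets were listed because the SCC-9 medium holds hydrocortisone. Of 16 measured targets the difference was called above 0 in 2 and below 0 in 4 (2 and 5 with HGF 3 of both lines left out). FKBP5, a classical target, had 1532, 1557 and 1756 normalized counts in Detroit 562 control and 1826, 2000 and 1993 with HGF. In SCC-9 it had 11750, 13822 and 14804 in control and 9965, 11972 and 11427 with HGF. Neither response was called (0.27 and -0.27), and the difference was 0.54 (SE 0.07, adjusted p = 0.000215). TSC22D3, also a classical target, fell by 1.14 in Detroit 562 and by 0.40 in SCC-9 (difference -0.73, adjusted p = 0.000647), and KLF9 fell by 0.97 and gave -0.08. What part the medium had in any response was not tested.

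Of 18 hypoxia targets the difference was called above 0 in 1 and below 0 in 1, near the 4.19% and 7.88% of all genes (1 and 4 without pair 3 of Detroit 562, and 1 and 4 with HGF 3 of both lines left out). BNIP3, a mitophagy receptor, rose by 1.08 in Detroit 562 and gave 0.17 in SCC-9 (difference 0.90, SE 0.10, adjusted p = 7.56e-05), and DDIT4, an inhibitor of mTORC1, fell by 0.95 and gave 0.05 (SE of the difference 0.15). Of 18 TGF-β and YAP targets the difference was called above 0 in 5, TGFB1 among them, and below 0 in 1, TGFBR2 (5 and 3 without pair 3 of Detroit 562, 5 and 2 with HGF 3 of both lines left out). TGFB1 rose by 0.76 in Detroit 562 and gave 0.04 in SCC-9, and SMAD7, its feedback inhibitor, rose by 0.50 and gave -0.13. The study names 12 genes for its sequencing, a list chosen on these samples and no independent evidence of a direction. Of these 12, 2 had a called difference above 0 and 5 below 0. The count below 0 was 3 without any 1 pair of SCC-9, and with HGF 3 of both lines left out the counts were 2 and 3. Among those below 0, SLC6A9, a glycine transporter, fell by 1.13 and 0.44 (difference -0.69), and GBP1 fell by 1.28 and 0.63 (difference -0.64).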

How the data were processed

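RNA was sequenced from 18 cultures of 3 HNSCC lines, with 3 libraries per line and treatment, and per the methods the experiment was repeated for each replicate. Where the repeats were not separate cultures, p-values measure only the spread between libraries. The authors deposited 1 table of whole-number read counts per gene, not normalized. Per the submitters' processing notes it was made with bcl2fastq 2.20.0.422, Cutadapt 1.16, STAR 2.5.2b, bedtools, genome build GRCh38.p12, GENCODE 28 and DESeq2 1.22.1. By the methods, reads were intersected with genes on 1 strand and a read was counted for every gene it overlapped, so overlapping genes share reads. The table holds 19901 genes, of which 18 are second copies of pseudoautosomal genes.

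Here the counts were filtered with filterByExpr over the 6 groups (15475 genes kept), scaled by TMM and fitted with edgeR 4.0.16 (limma 3.58.1, R 4.3.3) over all 18 libraries, with a mean for each line and replicate number and 1 HGF effect per line, which left 6 residual degrees of freedom. Responses, their difference between Detroit 562 and SCC-9 and its 95% interval came from this 1 quasi-likelihood fit. Normalized counts are TMM CPM values times 40.06. Statistics were checked on simulated counts. Single genes were also set against an exact permutation test of the 3 pair differences per line, which cannot go below a two-sided p of 0.1.

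The labels give the same replicate numbers to the control and HGF groups. Deviations from the group means were correlated across genes between control and HGF libraries. Same-numbered libraries gave 0.295, 0.161 and 0.454 in Detroit 562 and 0.332, 0.203 and 0.286 in SCC-9. Those of different numbers gave -0.144 and -0.136 on average, below 0 in part because deviations within a group sum to 0. In Detroit 562, control 1 with HGF 2 gave 0.218 and control 2 with HGF 1 gave 0.112. Pairs 1 and 2 of Detroit 562 were thus not told apart by these values. In SCC-9 all values of different numbers lay below 0. The pairing was taken from the shared numbers and these correlations, and not from the calls.

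The members, lists and tests were chosen with earlier results of these data known. Genes were named from those with a mean normalized count of at least 50 over the 12 libraries and 1 sign in all 3 pairs of the line with the larger response, ranked by the size of the difference within each class. Added to these were the genes the study names, up to 4 members of each list with the largest called differences, and members without a call. After the data were seen, the largest differences and shared responses among genes with a mean of at least 50 in both lines were added. DUSP6, PHLDA1, SPRY1, PLAUR, PLAT, TIMP2, CDH1, PTGS2, CXCL1, IVL, KLK5, GCLC, UGT1A10, CYP1B1, CYP1A1, ALDH1A3, IRF1, SAMD9L, MMP7, TGFBR2, FKBP5, KCNAB1, SORCS3 and the genes at the size threshold were also named after their values were seen, as were the genes raised in SCC-9 HGF 3.

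The alternatives were the fit without the block, DESeq2 1.42.0 with and without the block, other scalings, filters and thresholds, the 12 libraries alone, each library left out in turn, and, added after seeing the data, HGF 3 of both lines left out. Promoter sequences came from RefSeq (GRCh38.p14). A few genes that these rules would name are not reported here. Columns of comparisons made by the authors were not used.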

Additional observations from a re-analysis of the deposited data

Results flagged for a closer look

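The difference in response between the lines was itself tested by edgeR, and the values here are log2 responses of Detroit 562 minus SCC-9 of the named genes whose difference was called. Above 0 among the genes of widest difference were ZNF331 (4.76), ZNF829 (4.26), MMP1 (3.93), S1PR1 (2.69), MYEF2 (2.67) and ESM1 (2.34), and below 0 were ATP12A (-5.02), ADH1B (-3.95), ADH1C (-3.93), DEGS2 (-3.64), MPPED2 (-3.17) and CYP4B1 (-3.14). For ZNF331, ZNF829, ATP12A, ADH1B and ADH1C one of the groups held between 0 and a few reads, so their fitted values depend on the prior count of the fit. Others also had few reads in a line. In SCC-9 the raw counts were at most 11 for MPPED2, 13 for DEGS2 and 23 for MMP1. In Detroit 562 control they were at most 7 for MYEF2 and 11 for S1PR1.

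Among genes measured well in both lines the rises that were larger in Detroit 562 were those of IL18R1 (1.72), SOX9 (1.70), AOX1 (1.70), IL1A (1.68), CGB8 (1.66), CGB3 (1.64), CGB1 (1.60), TNFAIP3 (1.57) and CTB-60B18.6 (1.53). The falls that were larger there were those of PRODH (-2.13), SERPINB13 (-1.96), MGAM (-1.85), CIITA (-1.82), KRT15 (-1.81), SYNPO2 (-1.79), MUC15 (-1.79), KRT3 (-1.75), ZNF750 (-1.72) and WNT5A (-1.72).

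In SCC-9 the larger rises were those of PTPRZ1 (-1.01), STYK1 (-0.85), ZNF860 (-0.62) and RGS2 (-0.51), and the larger falls those of AC011513.3 (2.56), CEACAM6 (1.65), BIRC3 (0.62), ANK1 (0.62) and SLC2A6 (0.62). DLX2 (1.52), APOBEC3G (-1.37) and KREMEN2 (0.96) were called in opposite directions. Of the genes that the study names, HK2 (0.53), LDHA (0.43), FGFR3 (-0.71), SLC6A9 (-0.69) and GBP1 (-0.64) differed.

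Outside the comparison, genes low in a line and high in FaDu stood at 2.05% of the FaDu level in SCC-9 HGF 3 and at 0.43% in Detroit 562 HGF 3, above every other library of the same line. What brought these reads into the libraries was not tested.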

How the results depend on the processing

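The number of called differences, 1867 (648 above 0 and 1219 below 0), was 137 (63 and 74) without the replicate block, 514 (206 and 308) by DESeq2 with a fold change prior and no block, 4170 (2131 and 2039) with no minimum difference, and 339 (92 and 247) at an adjusted p below 0.05 and a difference of at least 1. It was 1519 by DESeq2 with the block, 1766 to 1869 with other scalings or filters, 1918 from the 12 libraries alone and 1916 without HGF 3 of both lines. Leaving out 1 library gave 1456 to 2041 (525 to 768 and 908 to 1274). No named gene with a called difference changed the sign of its difference under these alternatives.

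The genes called in Detroit 562 (3327) were 8291 with no minimum and 744 at the stricter threshold, and 2879 to 3430 with 1 library left out. Those called in SCC-9 (305) were 0 without the block, 19 by DESeq2 with the prior, 818 with no minimum, 25 at the stricter threshold and 116 without HGF 3 of both lines. With 1 library left out they were 69 to 345, with 69 where pair 3 of SCC-9 lost either library and 200 or 203 where pair 1 did.

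In the same order (no block, DESeq2 with the prior, no minimum, stricter threshold) the larger rises in Detroit 562 (556) were 57, 182, 2038 and 79, and 453 to 660 with 1 library left out, and the larger falls (1061) were 66, 283, 1913 and 189, and 774 to 1107. The larger rises in SCC-9 (12) were 0, 1, 34 and 5, 6 by DESeq2 with the block, 2 without HGF 3 of both lines and 1 to 19 with 1 library left out, with 1 where pair 3 of SCC-9 was broken and 19 where pair 2 of SCC-9 or Detroit 562 HGF 3 was. The larger falls there (11) were 0, 1, 39 and 2, 6 without HGF 3 of both lines, and 4 (pair 3 of SCC-9) to 20 (pair 3 of Detroit 562) with 1 library left out. The genes called in opposite directions (5) were 0, 0, 40 and 0, 9 with no filter, 8 from the 12 libraries alone, 0 without HGF 3 of both lines, and 0 (pair 3 of SCC-9) to 9 (pair 3 of Detroit 562) with 1 library left out. The share of called differences above 0 was 34.7%, 46% without the block, 51.1% with no minimum and 40.8% without HGF 3 of both lines.

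The genes named by rank or by the study held 49 with a called difference. Without the block 43 of these lost the call, and DEGS2, CYP4B1, MGAM, MUC15 and KRT3 were among those that kept it. Other list members are not counted in the 49, and without the block no list held more than 1 called difference in a direction. With 1 library of SCC-9 pair 3 left out, the calls of ADH1B, ADH1C, MPPED2 (-1.62) and RGS2 (-0.41) were lost. Losses were not confined to that pair. ADH1B and ADH1C also lost the call without SCC-9 HGF 1 or HGF 2, and ADH1B from the 12 libraries alone. RGS2 lost it without SCC-9 HGF 2, and ATP12A without SCC-9 HGF 1. With 3 pairs per line the precision is set by few repeats, and differences in genes nearly silent in 1 line rest on few reads.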
